A study of Homo sapiens with 4 samples.

Results

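Kruppel-like factors (KLFs) were followed in BEAS-2B, an immortalised human bronchial epithelial line, after LPS and after pretreatment with peptides from the PDZ domain of ZO-1. The members were 10 gene symbols chosen by name (KLF2, KLF3, KLF4, KLF5, KLF6, KLF7, KLF9, KLF10, KLF11 and KLF13) out of 24424 symbols in the count tables. They were chosen with earlier results of these data known. RNA was sequenced in 4 libraries, 1 per condition. Control cells were untreated, and the other libraries received LPS for 2 hr, either alone (LPS) or after 24 hr with the wild-type peptide (WT PDZ+LPS) or its mutant form (mut PDZ+LPS). All cells were of wild-type genotype, and the 4 libraries include none with peptide but no LPS. The mutant peptide has a glycine pair replaced with alanines, and both peptides carry a TAT sequence for entry into cells. A comparison is written as a ratio, so that LPS/Control sets LPS over Control.

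KLFs are transcription factors that bind GC-rich and CACCC sites in DNA through zinc fingers at their C-terminal end, while their N-terminal parts differ and recruit different partners. KLF2, KLF4, KLF5, KLF6 and KLF7 are known mainly as activators, KLF3 as a repressor that recruits the CtBP corepressors, and KLF9, KLF10, KLF11 and KLF13 as factors that recruit the Sin3 corepressor complex. Several members are early response genes, and KLF2 and KLF4 are known for restraining inflammatory genes in endothelial cells.

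Promoter sequences came from RefSeq (GRCh38.p14) and were matched by symbol for 8 of the 10 members, with 13 starts in all. The reads had been mapped to hg19 per the submitters' processing notes, so no position was carried between builds. The 250 bases before each start were searched on both strands. KLF4 and KLF6 are shown because both were called in LPS/Control, as was KLF10, for which no promoter was used. Also shown is 1 start each of KLF7 and KLF11, which hold the rarer motifs. Capitals mark matches of a loose NF-kB pattern (GGG and CC around 5 bases of any kind), AP-1 (TGANTCA), CRE (TGACGTCA) and the CArG box, 5′ to 3′ on the strand of the gene.
KLF4 (chr9:107489770-107490019, minus strand): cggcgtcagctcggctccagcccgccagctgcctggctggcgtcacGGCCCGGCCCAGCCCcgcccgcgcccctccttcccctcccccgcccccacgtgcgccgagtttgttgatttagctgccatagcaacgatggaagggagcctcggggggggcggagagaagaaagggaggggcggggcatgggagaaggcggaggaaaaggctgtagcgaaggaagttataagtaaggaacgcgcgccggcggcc
KLF6 (chr10:3785210-3785459, minus strand): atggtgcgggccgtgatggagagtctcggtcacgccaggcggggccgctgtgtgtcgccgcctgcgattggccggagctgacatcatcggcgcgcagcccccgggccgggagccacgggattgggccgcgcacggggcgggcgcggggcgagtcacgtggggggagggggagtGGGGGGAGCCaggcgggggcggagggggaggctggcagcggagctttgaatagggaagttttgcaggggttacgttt
KLF7 (chr2:207167247-207167496, minus strand): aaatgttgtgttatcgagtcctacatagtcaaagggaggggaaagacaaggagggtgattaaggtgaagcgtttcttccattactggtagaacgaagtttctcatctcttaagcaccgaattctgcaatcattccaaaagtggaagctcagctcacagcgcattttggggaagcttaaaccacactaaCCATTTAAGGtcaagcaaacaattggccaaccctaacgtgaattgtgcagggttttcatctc
KLF11 (chr2:10043971-10044220, plus strand): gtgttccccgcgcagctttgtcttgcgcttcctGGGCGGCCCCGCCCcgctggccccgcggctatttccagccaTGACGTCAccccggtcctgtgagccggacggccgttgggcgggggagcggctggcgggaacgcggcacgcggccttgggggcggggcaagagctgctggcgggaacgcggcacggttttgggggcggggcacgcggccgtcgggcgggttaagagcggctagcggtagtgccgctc

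The loose NF-kB pattern stood in 8 of the 13 windows searched, and 54.4% of all 35114 promoters of that length hold it. By gene, it stood before at least 1 start of 7 of the 8 members. Some members have more than 1 start, and no share by gene was computed over all genes. The count by gene therefore cannot be set against the share of promoters. Its matches in KLF4 overlap each other, at 204 to 195 and 199 to 190 bases before the start. KLF2 held matches at 7 positions, some of them overlapping. KLF5 held GGGTGTTCCC at 130 to 121 bases before 1 of its starts. The CRE of KLF11 lay 176 to 169 bases before the start, and 1.65% of all promoters hold this motif. The CArG box of KLF7, of the kind bound by serum response factor, lay 62 to 53 bases before the start, and 1.16% of all promoters hold 1. The AP-1 letters were found in 0 of the 13 windows, against 6.57% of all promoters. CACCC, which KLF proteins can bind, stood in 6 of the 13 windows, from 4 members, and in 54.7% of all promoters. TATAAA stood in 1 of the 13 windows, before a start of KLF5, and in 10.7% of all promoters. These are matches of letters and not measured sites.

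The libraries summed to between 19682929 and 25155647 counts. With 1 library per condition no difference had a replicate check, and the 95% intervals in parentheses cover counting error only. Counts were divided by geometric size factors, and a gene was called at a difference of at least 2-fold when it had at least 16 normalized counts in either library. All 10 members passed that limit in all 6 comparisons. The NF-kB targets NFKBIA, TNFAIP3 and CXCL8 had log2 fold changes of 2.98, 4.37 and 4.84 in LPS/Control. All 8 epithelial markers passed the limit in LPS/Control, with EPCAM at 37 to 51 counts, and they summed to 68138 to 94391 normalized counts per library. TP63 was called higher in LPS/Control, at 1.28, where 3.46% of genes were. KRT19 was called lower in WT PDZ+LPS/Control, at -1.09, where 1.42% of genes were. Of 6 leukocyte and myeloid markers 2 passed, CD14 (362 to 507 counts) and CD68 (304 to 358), with PTPRC at 0 in each library and a sum of 732 to 899 normalized counts. Of 4 endothelial markers KDR passed (16 to 23 counts), with CDH5 at 0 to 2 and a sum of 24.7 to 32.0. Of 4 fibroblast markers COL1A1 (331 to 449 counts) and PDGFRB (67 to 129) passed, with LUM at 0 in each library and a sum of 404 to 551. The part of such cells in the KLF values was not tested. In RNA from a whole culture, fewer cells that express a gene and less RNA per cell cannot be told apart. The mut PDZ+LPS library stood apart by transcript length. Its median log2 fold change over LPS went from 0.40 in the shortest decile of transcripts to -0.48 in the longest, against -0.0041 and 0.028 for the WT peptide. For the mutant peptide, log2 fold changes of single genes are therefore followed by the value adjusted for length and GC.

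After LPS, 3 of the 10 members were called in LPS/Control, all of them higher. KLF4 was 6.19-fold higher, KLF6 2.08-fold and KLF10 2.04-fold. Over the 13277 genes that passed, 3.46% of genes were called higher and 1.41% lower. Each of the 10 members had a log2 fold change above 0, as had 49.5% of all genes, and the median was 0.68 against -0.0023 over all genes. The counting interval lay above 0 for 9 members, as it did for 25.9% of genes, and KLF2 was the exception. The members were chosen with earlier results of these data known, so these shares only describe a chosen list. The 3 other KLF genes that passed the expression limit were all below 0. Scaling by the total count moved the median of all genes from -0.0010 to -0.13 on the log2 scale. KLF6 and KLF10 then stood at 0.93 and 0.90 and lost the call, as they did under upper quartile scaling, while KLF4 kept it.

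KLF4, known for its part in epithelial barrier formation and growth arrest, had 409.9 normalized counts in untreated cells, 2541 with LPS alone, 2527 after the WT peptide and 2326 after the mutant peptide. The 3 libraries with LPS lay close to each other and far above Control. Its log2 fold change was 2.63 (2.49 to 2.78) in LPS/Control, and 0.844% of all genes were as high. Over Control it was 2.62 (2.48 to 2.77) with the WT peptide and 2.50 (2.36 to 2.65) with the mutant, the latter 2.48 adjusted for length. Over LPS alone the difference was not detectable with the WT peptide, at -0.0076 (-0.087 to 0.071). With the mutant it was -0.13 (-0.21 to -0.043), or -0.17 adjusted for length.

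KLF6, an early response factor with broad expression, had 3747 normalized counts in untreated cells, 7797 with LPS alone, 6382 after the WT peptide and 8059 after the mutant peptide. The WT peptide library stood below the other libraries with LPS. Over Control, the log2 fold change of KLF6 was 1.06 (1.004 to 1.11) with LPS alone and 1.10 (1.05 to 1.16) with the mutant peptide, the latter 1.36 adjusted for length. It was 0.77 (0.71 to 0.82) in WT PDZ+LPS/Control, under the 2-fold limit. Over LPS alone KLF6 was at -0.29 (-0.34 to -0.24) with the WT peptide, where 6.68% of all genes were as low. With the mutant peptide it was at 0.048 (0.0013 to 0.094), or 0.33 adjusted for length, and under TMM scaling the interval included 0. Between the peptides, mutant over WT, the value was 0.34 (0.29 to 0.39), or 0.62 adjusted.

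KLF10, known as an early gene induced by TGF-beta, had 1315 normalized counts in untreated cells, 2684 with LPS alone, 2681 after the WT peptide and 2469.8 after the mutant peptide. LPS alone and the WT peptide were almost level. Over Control, KLF10 was at 1.03 (0.94 to 1.12) with LPS alone and at 1.03 (0.94 to 1.12) with the WT peptide. In mut PDZ+LPS/Control it was 0.91 (0.81 to 1.01), under the 2-fold limit, and 1.07 adjusted for length. The difference between the WT peptide and LPS alone, -0.0015 (-0.078 to 0.075), was not detectable at this depth. KLF11, a close relative of KLF10, had 84 counts in untreated cells, 131 with LPS alone, 118 after the WT peptide and 86 after the mutant peptide. Its log2 fold change in LPS/Control was 0.75 (0.35 to 1.17), and its differences among the 3 libraries with LPS were not detectable. Adjusted for length, those of the mutant library were -0.061 over LPS alone and -0.014 over the WT peptide.

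**Figure D1:**
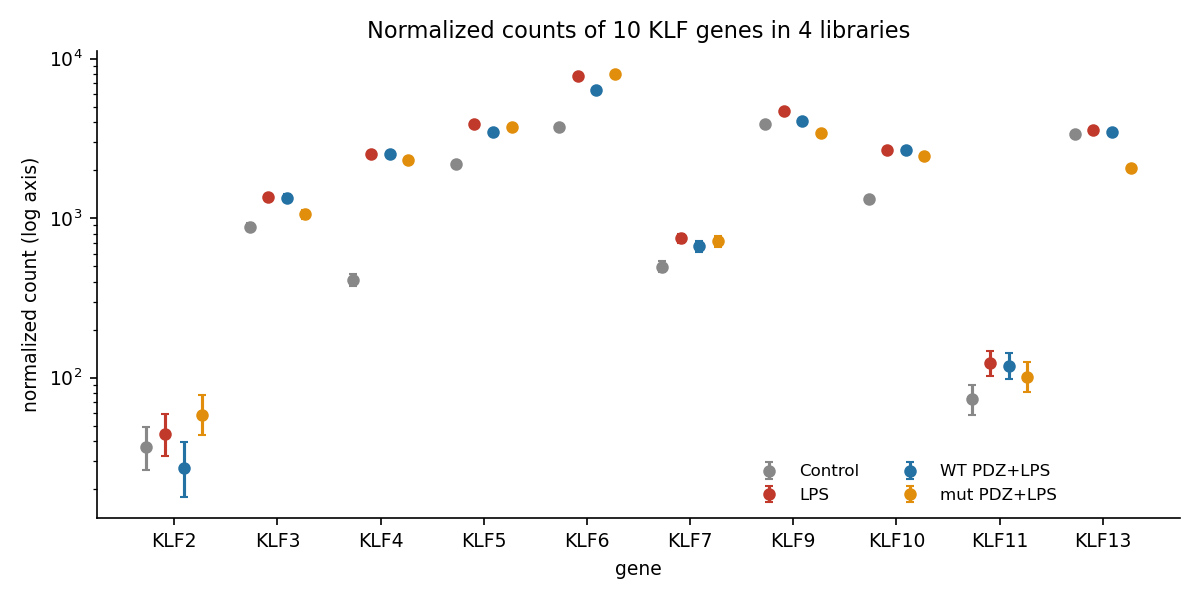
Normalized counts of the 10 KLF genes on a log axis, with a point for each of the 4 libraries and bars for the 95% Poisson interval of the count (counting error only). KLF4 goes from 409.9 in Control to between 2326 and 2541 in the libraries with LPS, and KLF13 is lowest in mut PDZ+LPS.

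KLF5, which maintains proliferation of basal epithelial cells, had 2189 normalized counts in untreated cells, 3888 with LPS alone, 3448 after the WT peptide and 3729 after the mutant peptide. Control was the lowest library, and LPS/Control gave 0.83 (0.76 to 0.90), below the 2-fold limit. Over LPS alone KLF5 was at -0.17 (-0.24 to -0.11) with the WT peptide and at -0.060 (-0.13 to 0.0071) with the mutant. The latter interval includes 0, and adjusted for length the value was 0.10, above that interval. KLF7, best known from neurons, had 497 normalized counts in untreated cells, 746 with LPS alone, 665 after the WT peptide and 714 after the mutant peptide. KLF7 was at 0.59 (0.43 to 0.74) in LPS/Control, and at -0.16 (-0.32 to -0.014) with the WT peptide over LPS alone. Its longest coding transcript, of 8362 nt, is the longest among the members, and with the mutant peptide over LPS alone its value of -0.062 became 0.44 when adjusted. The adjusted value rests on that transcript, and the median of its 8 coding transcripts is 1269 nt.

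KLF3, the CtBP-binding member, had 881 normalized counts in untreated cells, 1355 with LPS alone, 1337 after the WT peptide and 1059.9 after the mutant peptide. It was at 0.62 (0.50 to 0.74) in LPS/Control, and with the WT peptide over LPS alone at -0.019 (-0.13 to 0.090), not detectable. With the mutant peptide it was at -0.35 (-0.48 to -0.23), and at -0.041 adjusted for length. Its antisense symbol KLF3-AS1 had at most 3 counts in any library, and whether the counting used the strand is not given in the sources used here. KLF9, a target of the glucocorticoid receptor, had 3917 normalized counts in untreated cells, 4716 with LPS alone, 4089.6 after the WT peptide and 3444 after the mutant peptide. LPS alone was the highest library, with 0.27 (0.21 to 0.33) in LPS/Control. Over LPS alone KLF9 was at -0.21 (-0.27 to -0.15) with the WT peptide and at -0.45 (-0.52 to -0.39) with the mutant, the latter -0.13 adjusted.

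KLF13, known in T cells as a factor for late CCL5 expression, had 3369.9 normalized counts in untreated cells, 3596 with LPS alone, 3494 after the WT peptide and 2070.3 after the mutant peptide. The mutant peptide library stood apart from the other 3. LPS/Control gave 0.094 (0.029 to 0.16), the lowest value among the members and -0.038 under total count scaling. With the WT peptide over LPS alone it was at -0.042 (-0.11 to 0.025), not detectable, and with the mutant at -0.80 (-0.88 to -0.71). Of the 13378 genes that passed, 4.30% were as low. Adjusted for length KLF13 was at -0.51, and 4.20% of genes were as low on that scale. The mutant library was also lower than Control, at -0.70, and than the WT peptide library, at -0.75, or -0.47 and -0.46 adjusted. The longest coding transcript of KLF13 measures 6825 nt, and the median of its 3 coding transcripts is 574 nt. The adjusted values rest on the longest.

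KLF2, which is induced by flow in endothelium, was rare in these cells, with 42 counts in untreated cells, 47 with LPS alone, 27 after the WT peptide and 50 after the mutant peptide. Once scaled, the WT peptide library was lowest at 27.3 normalized counts and the mutant highest at 58.7. Its log2 fold changes of 0.27 (-0.36 to 0.91) in LPS/Control, -0.68 (-1.44 to 0.015) for the WT peptide over LPS alone and 0.40 (-0.19 to 1.02) for the mutant over LPS alone were not detectable at this depth, and the last was -0.046 adjusted for length. Between the peptides KLF2 was the 1 member called, at 1.08 (0.40 to 1.84) for mutant over WT, where 2.12% of genes were called higher and 2.14% lower. Adjusted for length the value was 0.63 and 0 members were called, where 0.742% of genes were called higher. The call was also lost with a pseudocount of 5 and under a stricter expression rule. Among the longest coding transcripts of the members, that of KLF2 is the shortest, at 2018 nt.

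**Figure D2:**
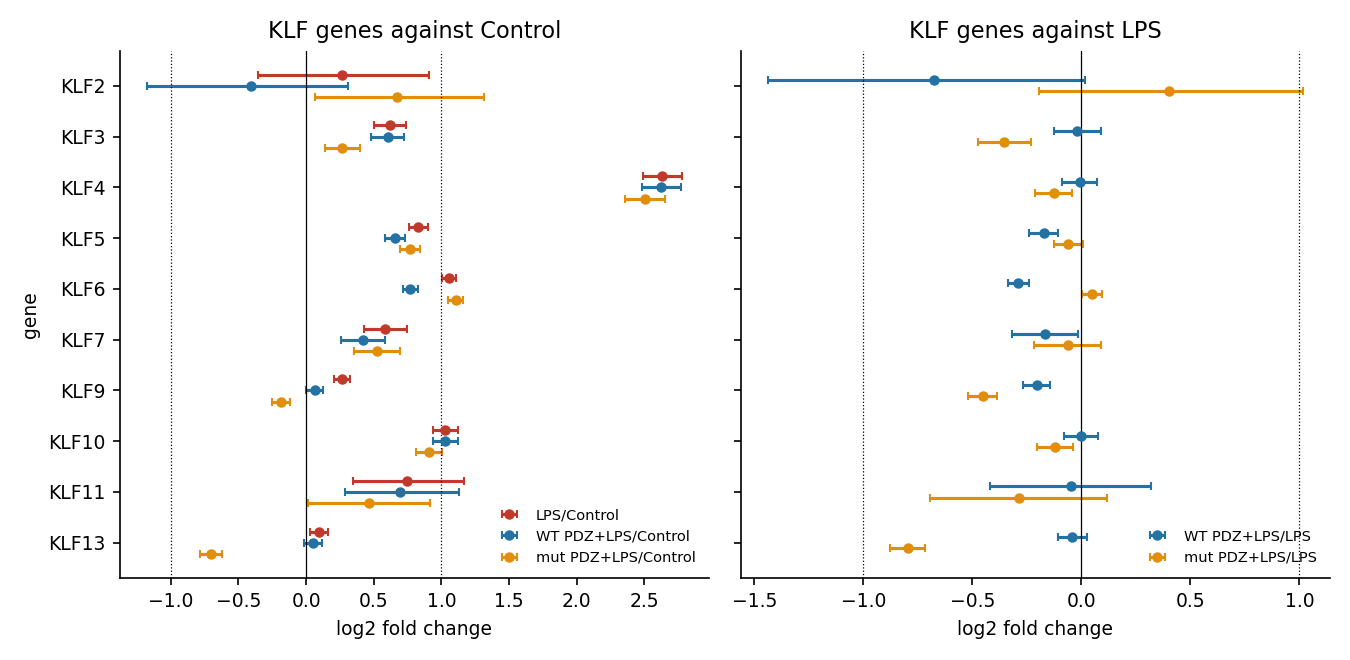
Log2 fold changes of the KLF genes against Control (left) and against LPS (right), with 95% counting intervals from 1 library per condition as bars and dotted lines at a 2-fold difference. KLF4 stands at 2.50 to 2.63 against Control, the WT peptide points against LPS lie below 0, and KLF13 is at -0.80 with the mutant peptide against LPS.

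The peptide comparisons set each pretreated library over LPS alone. Without a library of peptide alone, a changed response to LPS and a changed baseline cannot be told apart. Both comparisons share the LPS library with LPS/Control, where all 10 members were above 0. With the WT peptide over LPS alone 0 of the 10 members were called, where 0.635% of genes were called higher and 0.733% lower. All 10 values were below 0, from -0.68 for KLF2 to -0.0015 for KLF10, as were 47.2% of all genes, although KLF4 went to 0.0093 when adjusted for length. The median was -0.11, against 0.0076 over all genes. The counting interval lay below 0 for 4 members, KLF5, KLF6, KLF7 and KLF9, as it did for 10.2% of genes. With the mutant peptide over LPS alone 0 members were called as well, where 2.05% of genes were called higher and 1.9% lower. There 8 members were below 0, as were 51.5% of genes, and the interval lay below 0 for 5 members and 33.7% of genes. The median of -0.12 became -0.044 when adjusted, with KLF5, KLF7 and KLF10 going from below to above 0 and KLF2 from above to below. Under upper quartile scaling KLF5 and KLF7 also stood above 0, at 0.0045 and 0.0021.

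Against Control the WT peptide library had 2 called members, KLF4 and KLF10, where 3.28% of genes were called higher and 1.42% lower. The mutant peptide library also had 2, KLF4 and KLF6, where 5.13% of genes were called higher and 2.96% lower. Adjusted for length it had 3, with KLF10 added, where 3.85% of genes were called higher. These comparisons share the Control library with LPS/Control. In mut PDZ+LPS/Control KLF9 was at -0.19 (-0.25 to -0.12) and KLF13 at -0.70 (-0.78 to -0.62), the 2 members with an interval below 0, as for 34.7% of genes, and they became 0.10 and -0.47 adjusted.

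At a fold of 1.5 in either direction 7 members passed in LPS/Control, all higher, where 11.5% of genes did. Against Control 6 passed with the WT peptide, where 11.2% of genes did, and 6 with the mutant, where 23.6% did. KLF2 alone passed with the WT peptide over LPS (4.31% of genes) and KLF13 alone with the mutant over LPS (17.7%), both lower. Between the peptides KLF2 and KLF13 passed (19.1%). The counts for the mutant library are not adjusted for length. Adjusted, KLF13 fell within 1.5-fold, at -0.51 over LPS alone, -0.46 over the WT peptide and -0.47 over Control. KLF2 did so over Control, at 0.25. Beyond 1.5-fold when adjusted were KLF7 (0.97) and KLF11 (0.66) over Control, and KLF6 (0.62) and KLF7 (0.64) between the peptides. Shares of all genes at this fold were not computed after the adjustment. At a fold of 3 KLF4 alone passed in each comparison with Control, where 2.17% of genes did after LPS alone, 2.09% with the WT peptide and 2.97% with the mutant. Between the peptides 0 members and 1.04% of genes passed at that fold.

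**Figure D3:**
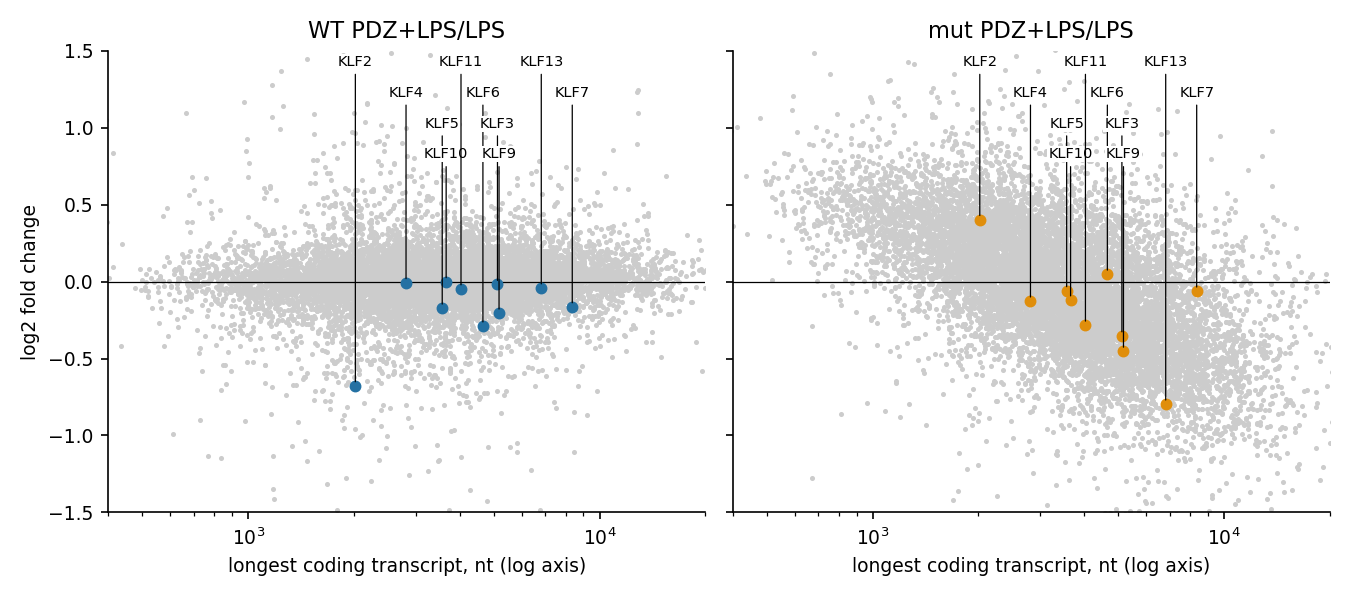
Log2 fold change over LPS (vertical axis) against the length of the longest coding transcript in nt (log axis) for 11751 genes in grey and the KLF genes in colour, for the WT peptide (left) and the mutant (right). Values beyond the drawn range are not shown. The grey cloud is nearly level on the left and slopes down on the right, where KLF13, KLF9 and KLF3 are long transcripts with negative values. There KLF7, the longest at 8362 nt, is at -0.062, and KLF6, of 4656 nt, is above 0 at 0.048.

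Levels of different members were compared as normalized counts per kb of the longest coding transcript in GENCODE 29, with 95% Poisson intervals. In Control KLF6 was highest at 805 (781 to 829) per kb, followed by KLF9 at 757 (735 to 779). KLF5 stood at 614, KLF13 at 494, KLF10 at 359, KLF3 at 172, KLF4 at 146 and KLF7 at 59.4. KLF11 and KLF2 were lowest, each at 18.1, and did not differ beyond their intervals. Per kb, KLF6 stood above 84.0% of 11751 genes and KLF2 above 8.94%. With LPS alone the order began with KLF6 at 1675 per kb and KLF5 at 1090.3, then KLF9 at 911 (886 to 937) and KLF4 at 903 (869 to 938), whose intervals overlapped. KLF4 stood above 39.4% of genes in Control and above 84.6% with LPS alone. The members summed to 3442 per kb in untreated cells, 6246 with LPS alone, 5655 after the WT peptide and 5594 after the mutant peptide. These sums do not include the adjustment for the length trend of the mutant library. With it, the median log2 fold change of the members in mut PDZ+LPS/Control went from 0.60 to 0.79. KLF4 made up 4.23% of that sum in Control and 14.5% with LPS alone, while KLF13 made up 14.3% and 8.44%. The order rests on the transcript used, since with the median length of its coding transcripts KLF13 would stand at 5871 per kb in Control.

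**Figure D4:**
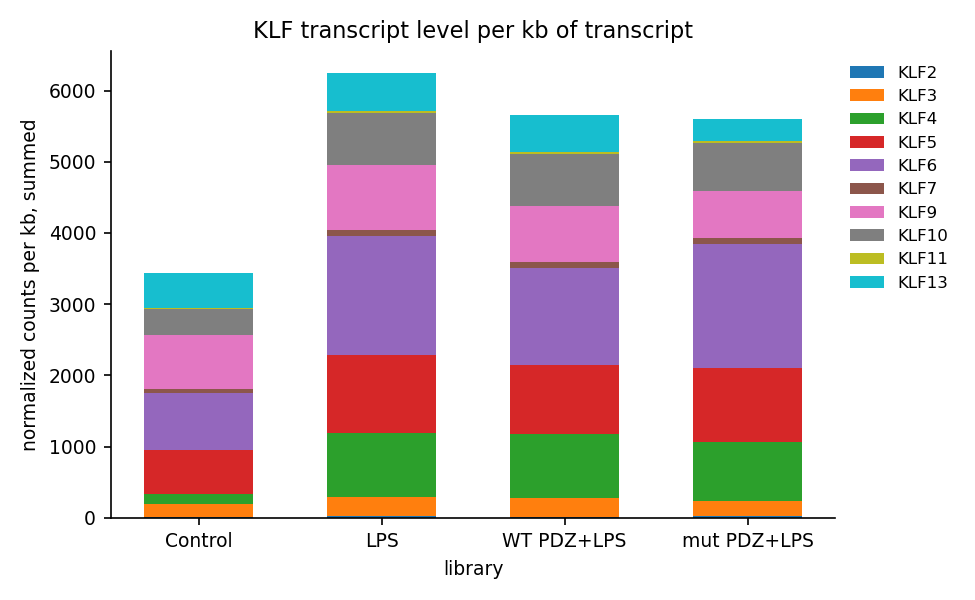
Stacked bars of the level of each KLF gene, in normalized counts per kb of the longest coding transcript, in the 4 libraries. The sum goes from 3442 in Control to 6246 in LPS, and the KLF4 segment from 146 to 903.

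The genes nearest to a called member in pattern were found among 13062 genes by the root-mean-square difference of centred log2 values over the 4 libraries. For KLF4 they were GCH1 (0.068), which encodes the first enzyme of tetrahydrobiopterin synthesis, TNC (0.078), which encodes the matrix protein tenascin C, and RNF144B (0.092), which encodes a ubiquitin ligase. GCH1 had 769 counts in untreated cells, 4297 with LPS alone, 3633 after the WT peptide and 3216 after the mutant peptide. For KLF6 they were BAHCC1 (0.014), DUSP10 (0.024), which encodes a MAP kinase phosphatase, and TNKS1BP1 (0.036). For KLF10 they were LURAP1L (0.020), JAG1 (0.032), which encodes a Notch ligand, and MACC1 (0.038), the last with 10 to 21 counts. The likeness rests on 4 libraries and is a description.

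Of 7 other KLF genes in the deposited data 3 passed the expression limit, KLF12, KLF15 and KLF16, and 0 were called in any comparison. Their log2 fold changes in LPS/Control were -0.037 (-0.22 to 0.14), -0.56 (-0.88 to -0.26) and -0.24 (-0.36 to -0.13). KLF15, which is induced by glucocorticoids, had 199 normalized counts in untreated cells, 135 with LPS alone, 128 after the WT peptide and 175 after the mutant peptide. KLF1, the erythroid factor, and KLF17 had 0 counts in each library. The SP proteins bind similar GC-rich sites, and of 9 SP genes 5 passed in LPS/Control, with values from -0.094 to 0.27 and 0 called. SP1 had 3873 normalized counts in untreated cells, 3629 with LPS alone, 3474 after the WT peptide and 1871 after the mutant peptide. It was called lower in mut PDZ+LPS/Control, where 2.96% of genes were, at -1.05 (-1.13 to -0.97), and was at -0.63 adjusted for length.

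Genes for partners of the KLF proteins were called in 0 of the 6 comparisons. In LPS/Control the 8 corepressor genes, among them CTBP1, CTBP2, SIN3A and SIN3B, had values from -0.38 to 0.18, and the 3 coactivator genes EP300, CREBBP and KAT2B from 0.041 to 0.15. With the mutant peptide over LPS alone EP300 was at -0.64 (-0.71 to -0.57) and CREBBP at -0.62 (-0.70 to -0.54), or -0.14 and -0.15 adjusted for length. Of the ERK5-MEF2 branch, which induces KLF2 and KLF4 under flow in endothelium, 4 of 5 genes passed in LPS/Control, with values from -0.21 to 0.18. The 6 genes for ubiquitin ligases that act on KLF proteins ranged from -0.17 to 0.54 in LPS/Control, with VHL highest at 0.54 (0.47 to 0.60). In mut PDZ+LPS/Control VHL was at 0.88 (0.82 to 0.95), under the 2-fold limit. Adjusted for length it was at 1.05, above that limit, where 3.85% of genes were called higher.

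Among 16 genes described as KLF targets 13 passed in LPS/Control, with a median of 0.38 against -0.0023 over all genes, and 2 were called, both higher, where 3.46% of genes were called higher and 1.41% lower. This list too was chosen with earlier results of these data known. PLAU, which encodes the urokinase plasminogen activator, had 910.3 normalized counts in untreated cells, 5898 with LPS alone, 4280.5 after the WT peptide and 5654 after the mutant peptide. Its log2 fold change was 2.69 (2.60 to 2.79) in LPS/Control, and over LPS alone -0.46 (-0.52 to -0.41) with the WT peptide and -0.061 (-0.12 to -0.0065) with the mutant, the latter -0.11 adjusted for length. THBD, which encodes thrombomodulin and is a target of KLF2 and KLF4 in endothelium, had 383 normalized counts in untreated cells, 1092 with LPS alone, 1133 after the WT peptide and 1166 after the mutant peptide. It was at 1.51 (1.35 to 1.67) in LPS/Control, and its differences between either peptide and LPS alone were not detectable, although the mutant value of 0.094 became 0.23 adjusted for length. In mut PDZ+LPS/Control 3 were called higher, where 5.13% of genes were: PLAU at 2.63, THBD at 1.60 and CCL5, or 2.61 and 1.72 adjusted for the former pair. CCL5 was at 1.01 (0.48 to 1.59) with 71 counts against 47 counts, or 0.77 adjusted. NOS3, the endothelial target of KLF2, had 0 counts in each library. Among the 3 libraries with LPS 0 of the target genes were called.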

How the data were processed

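RNA from BEAS-2B cells was sequenced in 4 libraries, grouped by the treatment label with 1 per condition. The authors selected poly(A) RNA, mapped trimmed reads with TopHat and deposited raw counts for each gene symbol. The submitters' processing notes name hg19, and the annotation, counting tool and strand setting are not given in the sources used here. Totals were 19682929 to 25155647 counts.

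Counts were scaled by geometric size factors (DESeq2 1.42.0, R 4.3.3), with a pseudocount of 1 before log2. A call needed a fold of at least 2 and a normalized log2 value of at least 4 in either library. No test was run, since each condition had 1 library. Intervals were exact at 95% (Clopper-Pearson for a difference, Poisson for a level). A lowess trend (span 0.3) over length and GC of the longest coding transcript in GENCODE 29 was removed as an adjustment, for 11751 of 13072 genes averaging 16 or more normalized counts. As alternatives, libraries were scaled by TMM (edgeR 4.0.16), by totals or by the upper quartile, the pseudocount was 5, the expression limit was dropped or set to 6, and the fold was 1.5 or 3. All 10 members were named, with the 3 nearest genes of each member called in LPS/Control and called genes of each list. Further list genes were named after their values were seen. Members and lists were chosen with earlier results of these data known. Calculations used scipy 1.17.1 and statsmodels 0.14.6 and were tested on simulated data.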

Additional observations from a re-analysis of the deposited data

Results flagged for a closer look

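KLF6 differed in direction between the peptides. Over LPS alone its log2 fold change was -0.29 with the WT peptide and 0.05 with the mutant. With geometric size factors the counting intervals lay on opposite sides of 0. For the WT peptide over LPS alone the interval lay below 0 for 10.2% of all genes. The share of genes with intervals on opposite sides was not counted, so how common this pattern is cannot be said. The mutant interval began at 0.0013, and under TMM scaling it ran from -0.0064 to 0.086 and included 0. The difference was not tested against replicates, since each condition had 1 library, and both values share the LPS library. For the mutant the value ran from 0.040 under TMM scaling to 0.33 adjusted for length and GC.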

How the results depend on the processing

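No paired analysis was possible because each condition had 1 library, and no replicate could be left out. Total count and upper quartile scaling each gave 1 called member, KLF4, in LPS/Control and in WT PDZ+LPS/Control. Without the length adjustment, a fold of 1.5 gave 7 members in LPS/Control and 6 against Control with either peptide. It gave 1 over LPS alone with either peptide and 2 between the peptides. A fold of 3 left 1, KLF4, in each comparison with Control. Between the peptides a fold of 3, a pseudocount of 5, the stricter expression limit and the length adjustment each gave 0. The summed level per kb in Control was 9513.8 with the median transcript length, in place of 3442. Of the 60 log2 fold changes of single members, 0 left their counting interval under TMM scaling or with a pseudocount of 5, while 17 did under total count scaling, 6 under upper quartile scaling and 21 with the length adjustment. Depth limited KLF2 and KLF11, with 27 to 50 and 84 to 131 counts.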
